A study of Mus musculus with 21 samples.

Results

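The genes of the mitochondrial respiratory chain and of ATP synthase were examined in 21 Affymetrix arrays of sorted mouse medulloblastoma cells. They were chosen by the start of their symbol in the platform annotation: Nduf for complex I, Uqcr for complex III, Cox4 to Cox8 for complex IV and Atp5 for complex V. The rule found 180 probe sets. Of these, 170 carried 1 symbol, which gave 86 genes of the 18193 genes with such a probe set. A filter on dim probe sets left 82 of them among the 12367 genes tested. The rule itself uses no measured value, but the set was selected with earlier results on these same arrays known. Its differences are therefore a description of these arrays, and the p-values quoted below are those of a fit over the whole table.

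All samples were cells of cerebellar tumours that arise after loss of Patched, the receptor that restrains Hedgehog signalling, and were sorted by CD15, a carbohydrate epitope on the cell surface. By their titles, 4 arrays held CD15 positive and 5 held CD15 negative cells of tumours labelled Math1-GFP, and 6 held CD15 positive and 6 held CD15 negative cells of conventional Patched tumours. The descriptions call the Math1-GFP tumours conventional as well, so the grouping rests on the titles. A title suffix differs between the models in every sample, and model and suffix cannot be told apart. Genotype, age, the driver of the GFP and any pooling of animals are not given in the sources used here, nor is it stated that the replicates were separate animals, so that the p-values refer to the spread of these arrays. The values are intensities that share a common trimmed mean, and are given below as log2(signal + 32).

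In the respiratory chain, complex I oxidises NADH, and complexes III and IV pass the electrons on through cytochrome c to oxygen. The proton gradient that they build drives ATP synthase, also called complex V. Most subunits are encoded in the nucleus and imported, and they assemble with a few catalytic subunits encoded in mitochondrial DNA. Progenitors of cerebellar granule neurons, from which these tumours arise, use both glycolysis and respiration. None of the 13 mitochondrially encoded genes was among those tested, so only the nuclear part of the complexes is described here.

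The respiratory genes were among the brightest on the arrays, and 64 of the 82 lay in the brightest 10% of all genes tested. The clearest feature was a lower level in Math1-GFP tumours in both CD15 fractions and in all 4 complexes. The mean over the 82 genes was 10.23, 10.30 and 10.34 (lowest, median and highest of 4 arrays) in Math1-GFP CD15 positive cells, against 10.88, 11.00 and 11.08 in those of conventional tumours. In CD15 negative cells it was 10.15, 10.22 and 10.31 in Math1-GFP tumours, against 10.74, 10.80 and 10.91 in conventional ones. The models did not overlap in either fraction. In bulk samples of this kind, fewer cells of a type and less RNA per cell cannot be told apart.

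**Figure D1:**
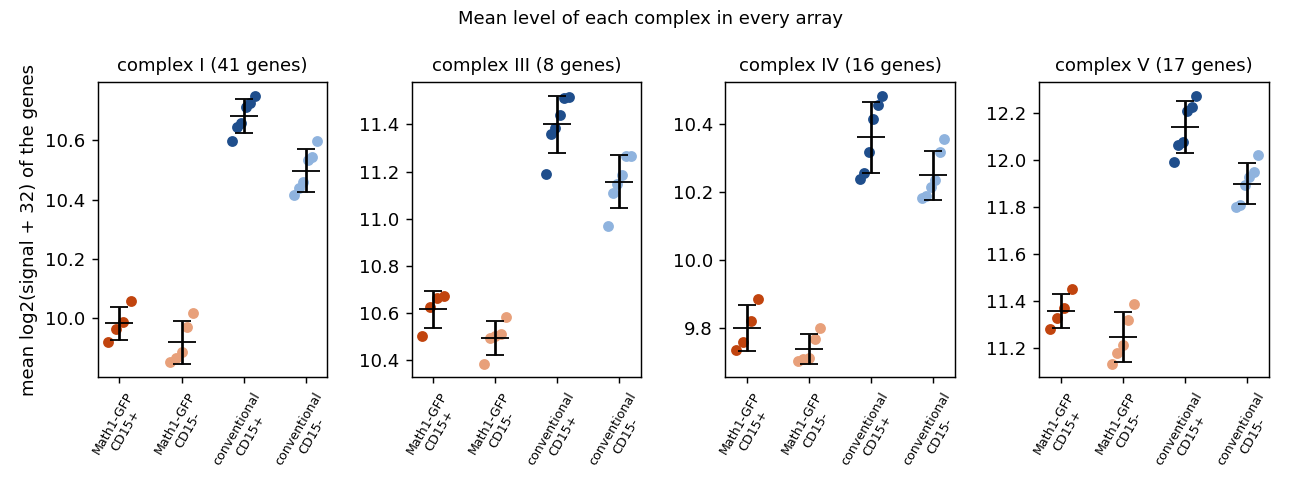
Mean log2(signal + 32) of the measured genes of complexes I, III, IV and V (y axis) in each of the 21 arrays, by tumour model and CD15 fraction (x axis). Points are arrays and bars are mean and SD. In each complex every Math1-GFP array lies below every conventional array, and within conventional tumours the CD15 positive arrays lie higher on average than the CD15 negative ones.

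Each complex showed the model difference. In CD15 positive cells, complex I averaged 9.98 ± 0.06 in Math1-GFP arrays and 10.68 ± 0.06 in those of conventional tumours (SD, n = 4 and 6). Complex III averaged 10.61 ± 0.08 in Math1-GFP and 11.40 ± 0.12 in conventional tumours. Complex IV averaged 9.80 ± 0.07 in Math1-GFP and 10.36 ± 0.10 in conventional tumours. Complex V averaged 11.36 ± 0.07 in Math1-GFP and 12.14 ± 0.11 in conventional tumours. These are means over probe sets of unlike brightness, so the complexes cannot be ranked against each other by level.

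Gene by gene, 68 of the 82 were lower in Math1-GFP than in conventional tumours in CD15 positive cells and 0 were higher (limma over 12367 genes, adjusted p under 0.05). Over all genes tested 12.2% passed in that direction. Their median log2 fold change was -0.73, or 1.66-fold lower, against 0.02 over all genes. In 62 of the 82 every Math1-GFP array of this fraction lay below every conventional one, which held for 9.56% of all genes. In CD15 negative cells 65 were lower and 0 were higher, against 10.5% of all genes, with a median of -0.64, or 1.56-fold lower, and -0.03 over all genes. Here 58 did not overlap, against 6.64% of all genes. The 2 comparisons share no array, but they are not independent. Same-numbered conventional arrays of the 2 fractions deviated from their group means together, and 1 estimate of spread and the same title suffix enter both comparisons. Of the genes lower in one of them, 62 were lower in both, which is 91.2% of the list from CD15 positive cells and 95.4% of that from CD15 negative cells.

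Bright genes as a whole were lower in Math1-GFP arrays, which stands beside those counts. The 99th percentile of the signal was 3388 to 4094 in Math1-GFP arrays and 4245 to 5405 in conventional ones. Among the 491 other genes at least as bright as the median respiratory gene (mean log2 of 11.03), 46.4% were lower in CD15 positive and 37.3% in CD15 negative cells of Math1-GFP tumours. Their median log2 fold changes were -0.36 and -0.27. The 41 equally bright respiratory genes had medians of -0.87 and -0.71, and 39 of 41 passed in each fraction.

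Quantile normalization, which gives every array the same distribution, removed the shift of the other bright genes and left part of that of the respiratory genes. After it the medians of the bright non-members were 0.03 in CD15 positive and 0.02 in CD15 negative cells. Those of the 82 respiratory genes were -0.51 and -0.48. There were 59 genes lower in CD15 positive cells, against 14.3% of all genes, and 58 lower with 1 higher in CD15 negative cells, where 12.6% of all genes were lower. The gene that was higher was Atp5a1. By complex, 34 of 41 genes of complex I, 6 of 8 of complex III, 8 of 16 of complex IV and 11 of 17 of complex V were still lower in CD15 positive cells. The part of array processing in the remaining difference was not tested.

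**Figure D2:**
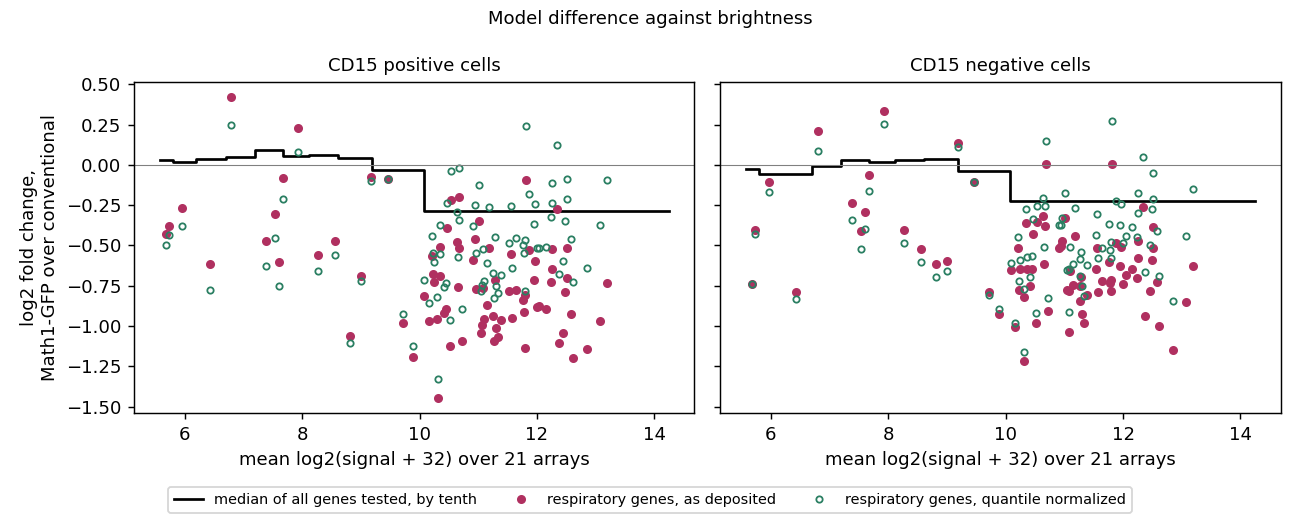
Log2 fold change of Math1-GFP over conventional tumours (y axis) against mean log2(signal + 32) over 21 arrays (x axis), for CD15 positive cells on the left and CD15 negative cells on the right. Filled points are the 82 respiratory genes as deposited and open points the same genes after quantile normalization. The black line is the median of all genes tested in each of 10 classes of brightness, which is -0.28 and -0.22 in the brightest class, and most respiratory genes lie below it.

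Control probe sets and some marker genes also differed between the models. The log2 ratio of the 3' to the 5' control probe set of Gapdh was -0.54 to -0.38 in Math1-GFP and -0.35 to -0.05 in conventional arrays. For beta-actin it was 0.33 to 0.61 in Math1-GFP and 0.48 to 0.96 in conventional arrays, and for pyruvate carboxylase 0.67 to 1.58 and 1.31 to 2.62. The transferrin receptor ran the other way, with medians of 0.90 in CD15 positive and 1.01 in CD15 negative Math1-GFP arrays, against 0.36 and 0.72 in conventional ones, and those ranges overlapped. Markers of granule neuron precursors, the labelled tumour cell, were present in every group. Their summed signal over 12 genes was 27046 to 39270 in Math1-GFP and 23142 to 38568 in conventional arrays. Of the 12, 2 were higher in CD15 positive and 1 in CD15 negative cells of Math1-GFP tumours, and 0 were lower. The 12 log2 fold changes were -0.19 to 1.18 (median -0.04) in CD15 positive and -0.21 to 1.17 (median 0.13) in CD15 negative cells. Of 8 microglial markers 4 were lower in Math1-GFP CD15 positive cells (median log2 fold change -1.75). None passed in CD15 negative cells, and the 8 log2 fold changes were -1.82 to -0.56, with a median of -1.10. Their summed signal was 278 to 1325 in the CD15 positive Math1-GFP arrays and 575 to 11043 in those of conventional tumours. The CD15 negative arrays had 166 to 439 in Math1-GFP and 233 to 2741 in conventional tumours. In CD15 negative cells 3 of 7 mural and fibroblast markers were lower in Math1-GFP tumours, where they summed to 215 to 362, against 253 to 3846 in conventional tumours. Oligodendrocyte lineage markers summed to 1387 to 3702 in Math1-GFP and 761 to 1678 in conventional arrays, and 2 of 6 were higher in CD15 positive and 1 in CD15 negative cells of Math1-GFP tumours. In CD15 positive cells 2 of 9 neuronal and 1 of 6 astrocyte markers were higher and 2 of 9 mitosis markers lower in Math1-GFP tumours. Each of these lists held log2 fold changes in both directions. They were -0.39 to 1.03 (median -0.03) for the neuronal and -1.40 to 1.41 (median 0.59) for the astrocyte markers. For the mitosis markers they were -0.63 to 0.44 (median -0.18). In CD15 negative cells 1 of 9 mitosis markers was higher and 1 lower, and 0 neuronal or astrocyte markers passed. None of 4 neutrophil and 3 endothelial markers passed in either fraction, and no erythroid marker was tested. No marker had a signal of 0 on any array, but the lowest signal of the whole table was 0.025, so this does not show that a cell type was present. The part of these differences in the respiratory genes was not tested.

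**Figure D3:**
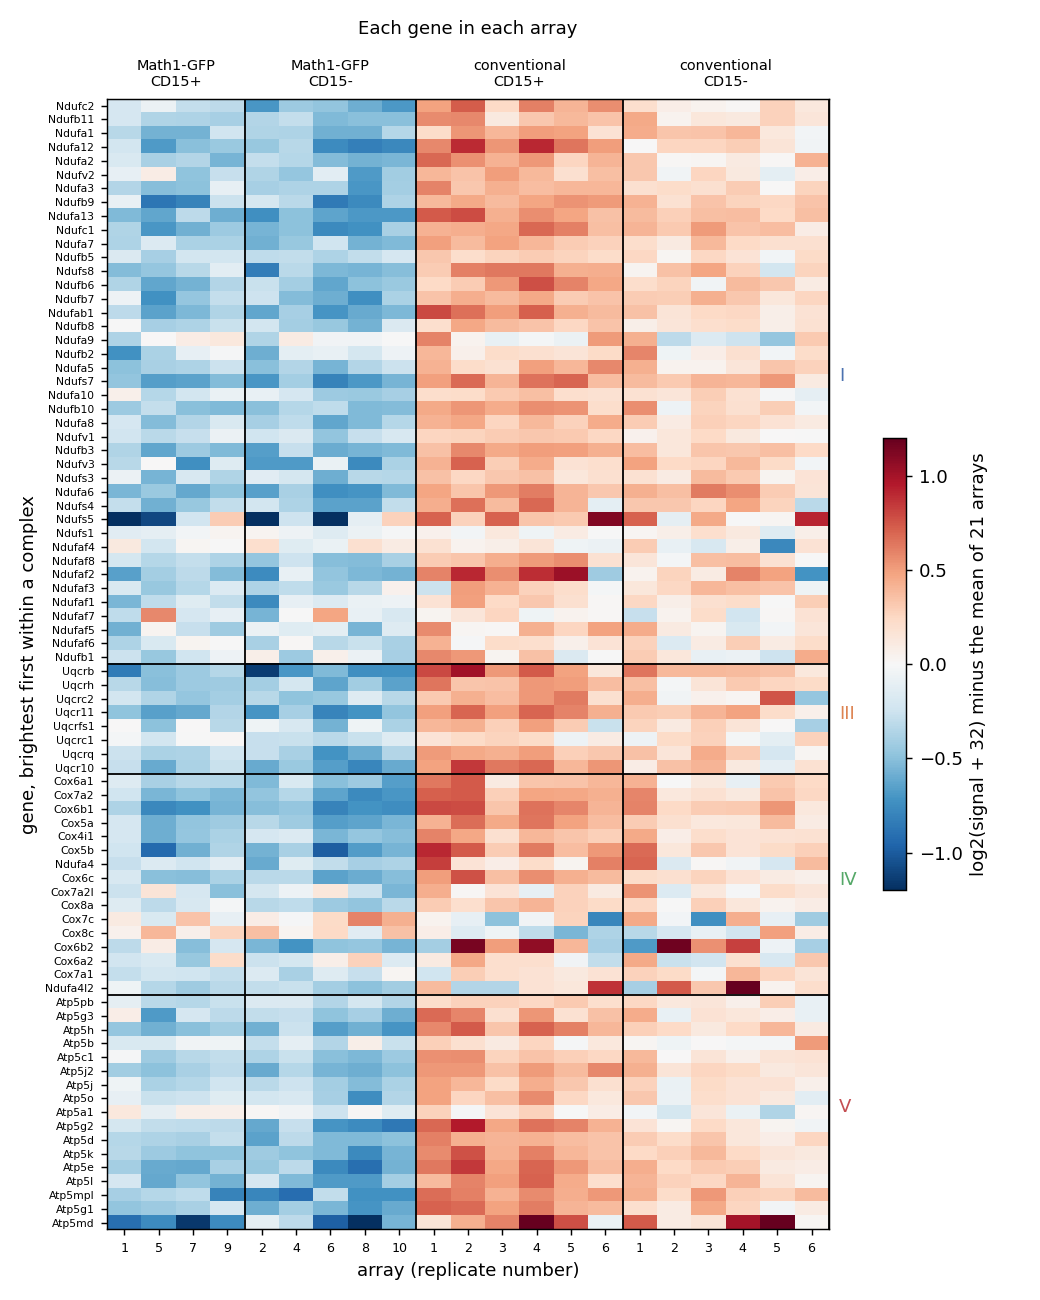
Log2(signal + 32) of each of the 82 genes (rows, grouped by complex I, III, IV and V and ordered by brightness within it) in each of the 21 arrays (columns, grouped by model and CD15 fraction), as the difference from that gene's mean over all arrays. Blue is lower and red is higher. The 9 Math1-GFP columns are blue and the 12 conventional columns red for most rows, with Cox7c and Cox8c among the exceptions.

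Since the genes of all 4 complexes moved together, the promoter of 1 gene of each is shown, namely the gene with 1 such window and the smallest p for the model difference in CD15 positive cells. Windows from 250 bases before to 50 after the annotated start came from RefSeq (GRCm38.p6) and were found for 71 of the 86 genes. The 250 bases before the start are given in lower case, followed by the base at the annotated start as a capital. They lie at chr8:69902020-69902270 (Ndufa13), chr10:80406821-80407071 (Uqcr11), chr7:30626114-30626364 (Cox6b1) and chr11:115419919-115420169 (Atp5h), all on the minus strand.
Ndufa13: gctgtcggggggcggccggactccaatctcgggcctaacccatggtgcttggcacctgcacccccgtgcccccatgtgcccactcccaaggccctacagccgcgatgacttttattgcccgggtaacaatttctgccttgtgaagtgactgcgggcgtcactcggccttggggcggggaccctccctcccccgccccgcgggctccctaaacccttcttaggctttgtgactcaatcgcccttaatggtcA
Uqcr11: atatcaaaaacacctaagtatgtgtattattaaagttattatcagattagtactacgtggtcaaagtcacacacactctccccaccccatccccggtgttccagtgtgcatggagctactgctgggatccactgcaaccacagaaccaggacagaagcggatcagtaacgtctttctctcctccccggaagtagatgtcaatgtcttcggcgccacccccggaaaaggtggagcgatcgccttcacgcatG
Cox6b1: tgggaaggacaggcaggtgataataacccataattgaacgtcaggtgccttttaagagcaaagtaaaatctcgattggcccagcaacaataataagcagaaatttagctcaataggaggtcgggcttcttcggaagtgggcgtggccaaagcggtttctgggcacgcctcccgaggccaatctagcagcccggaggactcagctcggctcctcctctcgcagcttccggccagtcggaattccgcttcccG
Atp5h: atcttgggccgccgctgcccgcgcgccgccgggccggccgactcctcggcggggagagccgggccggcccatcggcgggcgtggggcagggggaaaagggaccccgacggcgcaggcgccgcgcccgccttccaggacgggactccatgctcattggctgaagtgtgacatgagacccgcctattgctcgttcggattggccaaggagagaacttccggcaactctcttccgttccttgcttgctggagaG

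Over the whole window of 300 bases the G and C content was 62.7% in Ndufa13, 52.0% in Uqcr11, 53.0% in Cox6b1 and 69.0% in Atp5h. Over the 71 genes the median was 58.5%, with a range of 43.3% to 70.7%, against 52.8% over the windows of 27025 genes, to which Uqcr11 and Cox6b1 lay close. The median number of CG pairs in a window was 19 in the 71 genes, against 7 in all genes. This is a description of sequence with no test, and no factor's binding was measured.

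In complex I, 36 of 41 genes were lower in CD15 positive and 32 in CD15 negative cells of Math1-GFP tumours, with medians of -0.72 and -0.63. The core subunits carry the flavin and the iron-sulphur clusters, and 5 of 6 measured ones were lower in both fractions. Ndufs7, which holds the last iron-sulphur cluster before ubiquinone, had 10.04, 9.85, 9.87 and 9.99 in Math1-GFP CD15 positive cells. The conventional arrays had 10.89, 11.09 and 11.22 as the lowest, the median and the highest. The groups lay far apart, with a log2 fold change of -1.13 ± 0.11 (SE, limma adjusted p = 2.2e-06). In CD15 negative cells Ndufs7 had 9.95, 9.82, 10.11, 9.72 and 9.83 in Math1-GFP tumours, against 10.62, 10.90 and 11.04 in conventional ones, and differed by -0.98 ± 0.10 (limma adjusted p = 7.8e-06).

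The other core subunits changed less or did not pass. Ndufs8 fell by 0.87 and 0.75 on the log2 scale in CD15 positive and CD15 negative cells, Ndufs3 by 0.56 and 0.52, Ndufv2 by 0.55 and 0.51, and Ndufv1, the NADH-binding subunit, by 0.51 and 0.36. After quantile normalization Ndufv2 did not pass in either fraction, at -0.25 and -0.30. Ndufs1, the largest subunit of the complex, had 9.33, 9.36, 9.43 and 9.50 in the CD15 positive Math1-GFP arrays, against 9.42, 9.49 and 9.59 in conventional ones. Its groups overlapped, and its log2 fold changes of -0.09 ± 0.09 and -0.11 ± 0.08 did not pass (limma adjusted p = 0.48 and 0.38).

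The accessory subunits surround this core, and 26 of 27 measured ones were lower in CD15 positive and 23 in CD15 negative cells. Ndufa13, also known as Grim19 and shown above by its promoter, had 10.81, 10.71, 11.02 and 10.75 in Math1-GFP CD15 positive cells, against 11.69, 11.85 and 12.12 in conventional ones. It had 10.65, 10.60, 10.84, 10.70 and 10.65 in CD15 negative cells, against 11.58, 11.70 and 11.71. No arrays of the models overlapped, and the log2 fold changes were -1.07 ± 0.10 and -0.98 ± 0.09 (limma adjusted p = 2.2e-06 and 7.1e-06). The fold changes in CD15 positive and CD15 negative cells were -1.01 and -0.92 for Ndufc1, -0.97 and -1.01 for Ndufa6, and -0.95 and -0.82 for Ndufb3. They were -1.14 and -0.78 for Ndufa12 and -1.04 and -0.78 for Ndufab1, the mitochondrial acyl carrier protein. Smaller changes that passed in both fractions were those of Ndufa10, at -0.39 and -0.43, and Ndufb5, at -0.51 and -0.44. Ndufa10 did not pass in CD15 positive cells after quantile normalization (-0.24) or without Math1-GFP CD15 positive replicate 5 (-0.33), nor in CD15 negative cells with the average of its probe sets (-0.23). With that average Ndufa12 had -0.66 and -0.43 and Ndufab1 -0.55 and -0.44, and both still passed.

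A few accessory subunits were less uniform. Ndufs5 had the largest fold change of complex I, -1.19 ± 0.35 in CD15 positive cells, but its Math1-GFP and conventional arrays overlapped, and in CD15 negative cells -0.93 ± 0.33 did not pass (limma adjusted p = 0.057). Without Math1-GFP CD15 positive replicate 1 or 5 its call was lost, at -0.91 without replicate 1 and -1.03 without replicate 5. Ndufb1 and Ndufb2 passed in CD15 positive cells, at -0.47 and -0.51, and had -0.23 and -0.38 in CD15 negative cells, which did not pass. The call of Ndufb1 was lost in 10 of 21 fits that left out 1 array (-0.48 to -0.40), those without Math1-GFP CD15 positive replicate 1, 5 or 7, Math1-GFP CD15 negative replicate 8, conventional CD15 positive replicate 1, 2 or 4 or conventional CD15 negative replicate 2, 3 or 4. That of Ndufb2 was lost without Math1-GFP CD15 positive replicate 1 (-0.37), after quantile normalization (-0.34) and with the average of its probe sets (-0.37). Ndufa9, which lies at the junction of the 2 arms of the complex, had 10.31, 10.68, 10.77 and 10.80 in the CD15 positive Math1-GFP arrays, against 10.59, 10.69 and 11.27 in conventional ones. Those arrays overlapped, and it did not pass in either fraction (log2 fold changes of -0.20 and 0.00). None of these fractions was tested against the other beyond the interaction given below.

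The assembly factors help to build complex I and are not part of it when finished. Of 8 measured, 5 were lower in CD15 positive and 4 in CD15 negative cells. Ndufaf8 fell by 0.69 and 0.60 on the log2 scale in the 2 fractions, Ndufaf1 by 0.56 and 0.41, and Ndufaf3 by 0.47 and 0.52. The call of Ndufaf1 in CD15 negative cells was lost without Math1-GFP replicate 2 (-0.27) or conventional replicate 4 (-0.40), and that of Ndufaf3 in CD15 positive cells without Math1-GFP replicate 5 (-0.42) or 7 (-0.45). Ndufaf2 and Ndufaf5 passed in CD15 positive cells, at -1.06 and -0.61, and had -0.61 and -0.29 in CD15 negative cells. Ndufaf6 passed in CD15 negative cells, at -0.41, and had -0.30 in CD15 positive cells. Ndufaf4 had 9.30, 8.96, 9.21 and 9.18 in Math1-GFP CD15 positive cells, against 9.11, 9.24 and 9.36 in conventional ones, which overlap. Its fold changes of -0.07 ± 0.15 and 0.14 ± 0.15 did not pass, nor did those of Ndufaf7, a methyltransferase, at -0.08 ± 0.18 and -0.06 ± 0.16.

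**Figure D4:**
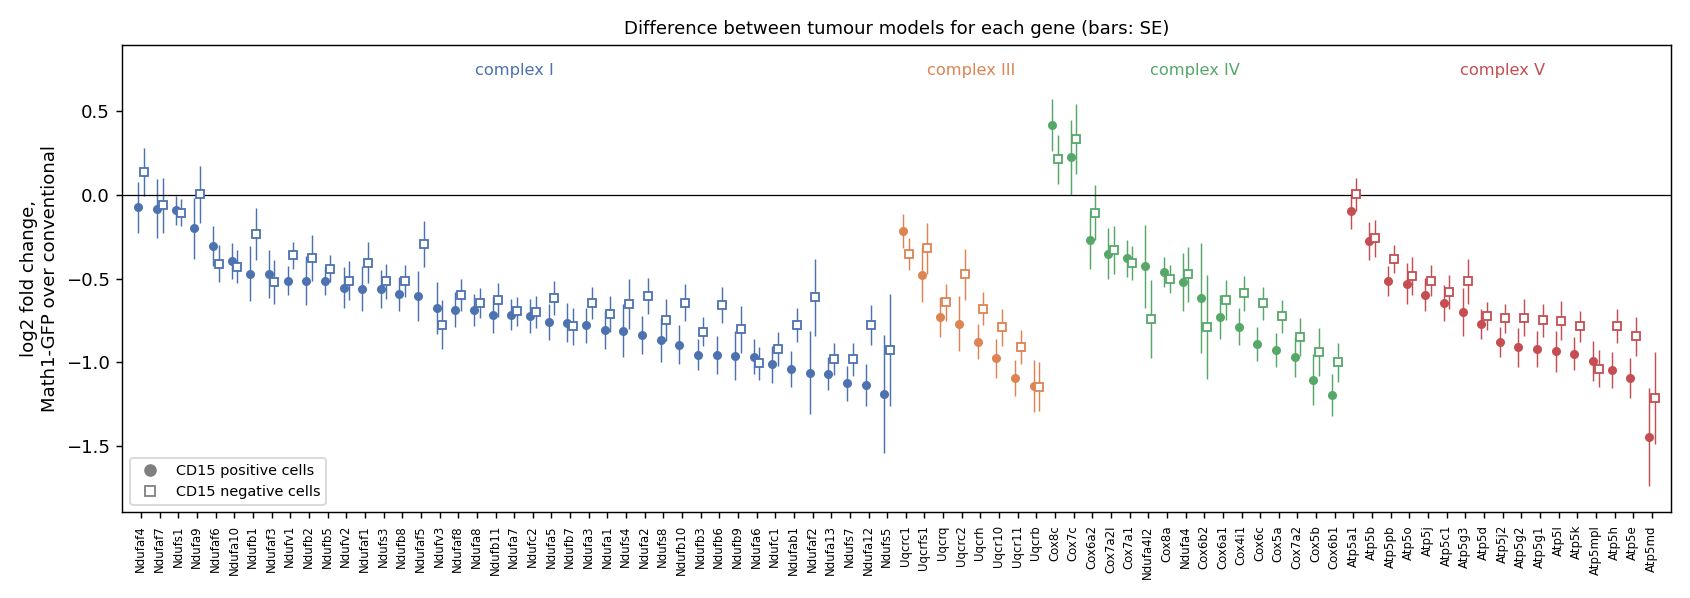
Log2 fold change of Math1-GFP over conventional tumours (y axis) for each of the 82 genes (x axis), ordered by size within complexes I, III, IV and V. Filled circles are CD15 positive cells, open squares CD15 negative cells, and bars are SE. Nearly all points lie below 0, with Cox8c and Cox7c above it and Ndufs1, Ndufaf4, Ndufaf7 and Atp5a1 near it.

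In complex III, 7 of 8 genes were lower in each fraction, with medians of -0.83 in CD15 positive and -0.66 in CD15 negative cells. Uqcr11, a small accessory subunit whose promoter is shown above, had 10.24, 10.07, 10.11 and 10.37 in the CD15 positive Math1-GFP arrays, against 11.15, 11.27 and 11.42 in conventional ones. It had 10.26, 10.02, 10.33, 9.94 and 10.01 in CD15 negative cells, against 10.79, 11.03 and 11.21. The models did not overlap, and the log2 fold changes were -1.10 ± 0.11 and -0.91 ± 0.10 (limma adjusted p = 3.5e-06 and 1.5e-05). Uqcrb, which helps to bind ubiquinone, differed by -1.14 ± 0.15 and -1.15 ± 0.14. The small subunits Uqcr10, Uqcrh and Uqcrq fell by 0.98, 0.88 and 0.73 on the log2 scale in CD15 positive and by 0.79, 0.68 and 0.64 in CD15 negative cells. With the average over the probe sets of a gene, Uqcr10 had -0.14 and -0.34 and Uqcrq -0.16 and -0.12 in CD15 positive and CD15 negative cells, and neither passed (limma adjusted p = 0.69 and 0.28 for Uqcr10, 0.25 and 0.36 for Uqcrq). The 2 further probe sets of Uqcr10 had mean log2 values of 5.82 and 6.90, against 9.72 for the one used.

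Of the larger subunits, Uqcrc2 passed in both fractions, at -0.77 and -0.48. Its call in CD15 negative cells was lost after quantile normalization (-0.33) and in 8 of 21 fits that left out 1 array, namely Math1-GFP CD15 negative replicates 2, 4, 6 and 10 and conventional CD15 negative replicates 1, 3, 4 and 5 (-0.50 to -0.35). Uqcrfs1, the Rieske iron-sulphur protein, had 10.65, 10.15, 10.64 and 10.31 in Math1-GFP CD15 positive cells, against 10.38, 10.99 and 11.13 in conventional ones. These overlap, and it passed in CD15 positive cells only narrowly, at -0.48 ± 0.16 (limma adjusted p = 0.039), with -0.32 ± 0.15 in CD15 negative cells (limma adjusted p = 0.15). That call was lost after quantile normalization, at -0.29, and without Math1-GFP CD15 positive replicate 5 or 9 or conventional CD15 positive replicate 1, 2, 3, 4 or 5 (-0.47 to -0.38). Uqcrc1 passed in CD15 negative cells, at -0.35 ± 0.10 (limma adjusted p = 0.015), and had -0.22 ± 0.10 in CD15 positive cells (limma adjusted p = 0.14). After quantile normalization it did not pass in CD15 negative cells, at -0.25.

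Complex IV, cytochrome c oxidase, has subunits made in all tissues and further isoforms, most of them typical of heart, muscle, lung or testis. Of the 11 ubiquitous genes, which include Ndufa4, now counted with this complex, 9 were lower in each fraction of Math1-GFP tumours. Cox6b1, whose promoter is shown above and which joins the monomers of the dimeric enzyme, had 12.24, 11.84, 11.88 and 12.05 in the CD15 positive Math1-GFP arrays, against 12.94, 13.23 and 13.40 in conventional ones. It had 11.87, 12.10, 12.15, 11.81 and 11.89 in CD15 negative cells, against 12.74, 12.92 and 13.21. There was no overlap, and the log2 fold changes were -1.2 ± 0.12 and -1.0 ± 0.12 (limma adjusted p = 3.6e-06 and 1.7e-05). In CD15 positive and CD15 negative cells the fold changes were -1.11 and -0.94 for Cox5b, -0.97 and -0.85 for Cox7a2, -0.93 and -0.73 for Cox5a, and -0.89 and -0.65 for Cox6c. They were -0.79 and -0.59 for Cox4i1, which binds ATP as a brake on the enzyme, and -0.73 and -0.63 for Cox6a1. After quantile normalization Cox6a1 and Ndufa4 did not pass in either fraction, with -0.10 and -0.11 in CD15 positive and -0.15 and -0.17 in CD15 negative cells. Ndufa4, at -0.52 and -0.47 as deposited, also lost its call in 6 of 21 fits in CD15 positive cells, those without any 1 of the 4 Math1-GFP arrays of this fraction or conventional replicate 1 or 6 (-0.55 to -0.42). Of 21 such fits in CD15 negative cells, 15 lost it (-0.51 to -0.36). The arrays were all 4 Math1-GFP CD15 positive ones, Math1-GFP CD15 negative replicates 2, 6, 8 and 10, conventional CD15 positive replicates 2, 3 and 4 and conventional CD15 negative replicates 1, 3, 4 and 6.

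The ubiquitous genes that did not pass were Cox7c and Cox7a2l. Cox7c had 8.03, 7.74, 8.27 and 7.82 in Math1-GFP CD15 positive cells, against 7.14, 7.85 and 8.20 in conventional ones. Its groups overlapped widely, with log2 fold changes of 0.23 ± 0.22 and 0.33 ± 0.21. Both of its probe sets were dim for a ubiquitous subunit, with mean log2 values of 7.93 and 6.83. Cox7a2l, which ties complexes III and IV together, had -0.35 ± 0.15 and -0.33 ± 0.14 (limma adjusted p = 0.10 and 0.12).

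The tissue isoforms, with which Ndufa4l2, the counterpart of Ndufa4, was counted, were near the floor of the arrays. Cox4i2, Cox7b2 and Cox8b, with mean log2 values of 5.44, 5.34 and 5.38, lay below the filter at 5.57 and were not tested, as did Ndufb4 of complex I at 5.51. Just above it lay Ndufa4l2 at 5.69, Cox7a1 at 5.73, Cox6a2 at 5.96 and Cox6b2 at 6.42. Of the 5 isoforms tested, 1 was lower in CD15 positive cells (Cox7a1, at -0.38 ± 0.11) and 2 in CD15 negative cells (Cox7a1, at -0.41 ± 0.10, and Ndufa4l2, at -0.74 ± 0.23). The call of Ndufa4l2 was lost without conventional CD15 negative replicate 2 or 4 or Math1-GFP CD15 negative replicate 2, 6, 8 or 10 (-0.76 to -0.56). With only the unnumbered conventional arrays and those numbered 6 it had -0.28 and did not pass. Cox8c, which is made in testis, had 6.85, 7.20, 6.85 and 7.06 in the CD15 positive Math1-GFP arrays, against 6.25, 6.57 and 6.88 in conventional ones. It overlapped and did not pass, at 0.42 ± 0.16 (limma adjusted p = 0.059). The 3 measured muscle markers summed to a signal of at most 158 in any of the 21 arrays.

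In complex V, 15 of 17 genes were lower in each fraction of Math1-GFP tumours, with medians of -0.88 in CD15 positive and -0.73 in CD15 negative cells. All 5 small subunits of the membrane part passed in both fractions. Atp5j2 had 11.58, 11.51, 11.61 and 11.68 in Math1-GFP CD15 positive cells, against 12.35, 12.52 and 12.58 in conventional ones. It had 11.51, 11.40, 11.66, 11.45 and 11.41 in CD15 negative cells, against 12.12, 12.19 and 12.43. The models did not overlap in either fraction, with log2 fold changes of -0.88 ± 0.09 and -0.74 ± 0.08 (limma adjusted p = 3.6e-06 and 1.5e-05). Atp5k differed by -0.95 and -0.79, Atp5l by -0.94 and -0.75, and Atp5mpl by -1.0 and -1.04.

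Atp5md, a small subunit that stabilises the dimer of the enzyme, had the largest fold change of the 82 genes in each fraction. It had 9.41, 9.56, 9.16 and 9.56 in the CD15 positive Math1-GFP arrays, against 10.23, 10.83 and 11.76 in conventional ones. The conventional arrays were widely spread, and the log2 fold changes were -1.45 ± 0.29 and -1.22 ± 0.28 (limma adjusted p = 0.0015 and 0.0044).

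The c ring turns as protons pass, and its protein is encoded by 3 genes. All 3 were lower in both fractions, Atp5g1 by 0.92 and 0.75, Atp5g2 by 0.91 and 0.73 and Atp5g3 by 0.70 and 0.52 on the log2 scale. All 4 genes of the peripheral stalk, which holds the catalytic head still, were lower too. Atp5h, whose promoter is shown above, fell by 1.05 and 0.78, Atp5j by 0.60 and 0.51, Atp5o by 0.53 and 0.49 and Atp5pb by 0.51 and 0.38. After quantile normalization Atp5g3, Atp5o and Atp5pb did not pass in either fraction. Atp5g3 then had -0.21 in both, Atp5o -0.18 in CD15 positive and -0.22 in CD15 negative cells, and Atp5pb -0.09 and -0.05.

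The catalytic head was split. The genes of its central shaft were lower in both fractions, Atp5e by 1.10 and 0.85, Atp5d by 0.77 and 0.72 and Atp5c1 by 0.65 and 0.58. Atp5c1 did not pass with the average of its 2 probe sets, at -0.19 and -0.21 (limma adjusted p = 0.14 and 0.093), of which the second had a mean log2 of 5.79 against 12.26. After quantile normalization it had -0.24 in CD15 positive cells, which did not pass, and -0.30 in CD15 negative cells, which did. The subunits of the catalytic ring did not pass. Atp5b had 12.16, 12.16, 12.30 and 12.29 in Math1-GFP CD15 positive cells, against 12.33, 12.50 and 12.63 in conventional ones. Its log2 fold changes were -0.27 ± 0.12 and -0.26 ± 0.11 (limma adjusted p = 0.091 and 0.099). Atp5a1 had 11.94, 11.70, 11.88 and 11.87 against 11.80, 11.94 and 12.09, which overlap, with -0.10 ± 0.11 and 0.00 ± 0.10.

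Probe sets of one gene did not always give the same value. The 2 other probe sets of Atp5a1 had -0.40 and -0.73 in CD15 positive and -0.33 and -0.74 in CD15 negative cells, and all 4 values passed in a fit over every probe set. The mean of its 3 probe sets was lower in CD15 negative cells, at -0.36 (limma adjusted p = 0.0014). Across the set, 74 probe sets were second to a brighter one of the same gene. Of these, 13 had the opposite direction in CD15 positive cells, with mean log2 values of at most 6.90, and 0 of the 50 with a mean log2 of at least 8 did. In CD15 negative cells 12 had the opposite direction, and 1 of those 50 did. Fitted singly, 117 of the 156 probe sets past the filter were lower and 1 was higher in CD15 positive cells. In CD15 negative cells 112 were lower and 2 higher. Of all 23211 probe sets in that fit, 26.2% passed in either direction in CD15 positive and 23.6% in CD15 negative cells. The 6 bright probe sets annotated with a respiratory gene and a further symbol, which were not tested, had -0.88 to -0.59 and -0.72 to -0.48.

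The difference between CD15 fractions was smaller and was called in conventional tumours alone, where 9 of 82 genes were higher in CD15 positive cells and 0 were lower, against 3.05% of all genes that were higher. The log2 fold change was above 0 for 75 of the 82, with a median of 0.20, or 1.15-fold higher, against -0.02 over all genes. In 7 genes the fractions did not overlap, which held for 1.89% of all genes. Bright genes in general moved likewise: of the 491 bright non-members 13.6% were higher and their median was 0.19, beside 0.23 for the 41 bright respiratory genes. After quantile normalization the median of the respiratory genes was 0.07 and that of the bright non-members 0.003. Only Atp5g2 and Uqcr10 then passed, against 2.62% of all genes. The count was 5 without CD15 positive replicate 1 and 5 without CD15 positive replicate 2. Leaving out 1 array ended the call of Cox5a in 15, Atp5h in 8, Cox6c in 6 and Atp5g1 in 3 of 21 fits, with lowest values of 0.27, 0.29, 0.28 and 0.32. For Atp5g1 these were CD15 positive replicates 1 and 2 and CD15 negative replicate 5, for Cox6c CD15 positive replicates 1, 2 and 4 and CD15 negative replicates 4, 5 and 6, and for Atp5h CD15 positive replicates 1, 2, 4 and 5 and CD15 negative replicates 2, 3, 4 and 6. For Cox5a they were CD15 positive replicates 1 to 5, CD15 negative replicates 2, 3, 4 and 6, and, through the shared estimate of spread, Math1-GFP CD15 positive replicates 7 and 9 and CD15 negative replicates 4, 6, 8 and 10.

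The 9 genes came from all 4 complexes. Atp5g2, of the c ring, had 12.20, 12.41 and 12.73 (lowest, median and highest of 6 arrays) in CD15 positive cells, against 11.74, 11.87 and 12.02 in CD15 negative cells. The fractions did not overlap, and the log2 fold change of 0.54 ± 0.10 was the largest of the set (limma adjusted p = 0.0031). Atp5g1 had 10.79, 10.96 and 11.12 in CD15 positive cells, against 10.38, 10.56 and 10.87, which overlap slightly, and differed by 0.36 ± 0.10. Atp5h, of the stalk, had 12.78, 13.04 and 13.19, against 12.56, 12.69 and 12.84, and differed by 0.33 ± 0.10.

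The complex I genes were accessory subunits. Ndufa12 lay between 12.30 and 12.70 in CD15 positive cells, against 11.75 to 12.09 in CD15 negative cells, with no overlap and a fold change of 0.52 ± 0.11 (limma adjusted p = 0.0067). Ndufab1 had 11.42, 11.62 and 11.84, against 11.11, 11.25 and 11.40, and also did not overlap, at 0.37 ± 0.09. Ndufc2 had 12.49, 12.77 and 12.97, against 12.26, 12.35 and 12.52, and differed by 0.38 ± 0.09. In complex III, Uqcr10 had 10.12, 10.31 and 10.57 in CD15 positive cells, against 9.61, 9.87 and 10.13, and differed by 0.42 ± 0.10 (limma adjusted p = 0.014). With the average over the probe sets of a gene, Ndufab1 had 0.07 and Uqcr10 0.15, and neither passed (limma adjusted p = 0.66 and 0.75). In Ndufc2 and Uqcr10 the fractions overlapped slightly.

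In complex IV, Cox6c had 12.51, 12.61 and 12.91 in CD15 positive cells, against 12.21, 12.33 and 12.42 in CD15 negative cells, and differed by 0.33 ± 0.09 (limma adjusted p = 0.030). Cox5a had 12.94, 13.04 and 13.25, against 12.68, 12.74 and 12.95, and differed by 0.30 ± 0.09 (limma adjusted p = 0.048). Cox6c was separate between the fractions and Cox5a touched. With the replicate number as a block, which pairs 5 arrays of each fraction, both missed the threshold (adjusted p = 0.052 for Cox6c and 0.053 for Cox5a).

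**Figure D5:**
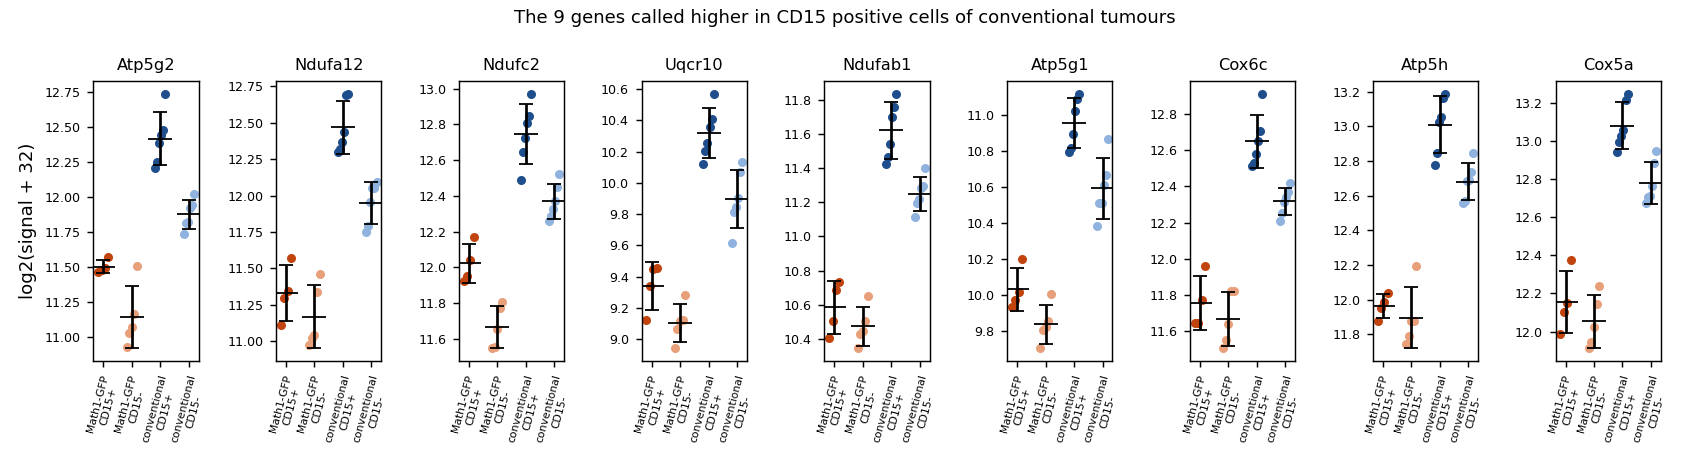
Log2(signal + 32) (y axis of each panel) of the 9 genes called between the CD15 fractions of conventional tumours, in the 4 groups of arrays (x axis). Points are arrays and bars are mean and SD. In every panel the Math1-GFP groups lie below both conventional groups, and the gap between CD15 fractions is smaller than the gap between models.

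The title numbers 2 to 6 pair the fractions of conventional tumours, and within these 5 pairs the mean over the 82 genes was higher in CD15 positive cells each time, by 0.32, 0.10, 0.23, 0.19 and 0.14. By gene, 47 of the 82 were higher in all 5 pairs, but the share over all genes was not counted. Without that share the 47 cannot be read as particular to respiratory genes. By another measure, the log2 fold change over all conventional arrays, 75 of the 82 and 379 of the 491 bright non-members were above 0. In the 5 pairs the mean of 9 mitosis markers was 0.70 to 1.31 higher and that of 9 neuronal markers 0.73 to 1.27 lower in CD15 positive cells. All 9 mitosis markers were higher by the test, with a summed signal of 20393 to 26876 in CD15 positive and 7933 to 15980 in CD15 negative cells. Of the 9 neuronal markers 8 were lower, with 4688 to 9202 in CD15 positive and 10348 to 22312 in CD15 negative cells. None of 8 microglial and 7 mural and fibroblast markers passed. Their log2 fold changes were 0.52 to 1.37 (median 0.85) for the microglial and -1.11 to -0.48 (median -0.59) for the mural and fibroblast markers. The part of these markers in the respiratory difference was not tested.

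In Math1-GFP tumours 0 of the 82 genes passed between CD15 positive and CD15 negative cells, against 0.0404% of all genes in either direction (limma). At an unadjusted p under 0.05 there were 3, beside 1073 of the 12367 genes. The log2 fold change was above 0 for 65 of the 82, with a median of 0.09, and that of bright non-members was 0.10. The fractions did not overlap in 1 gene, Ndufc2, against 2.54% of all genes. It had 12.04, 12.17, 11.95 and 11.93 in CD15 positive cells, against 11.55, 11.55, 11.81, 11.77 and 11.66 in CD15 negative cells, and 0.36 ± 0.11 did not pass (limma adjusted p = 0.19). Atp5g2 had 11.57, 11.49, 11.48 and 11.47, against 10.93, 11.17, 11.51, 11.07 and 11.03, with 1 CD15 negative array among the CD15 positive ones, and 0.36 ± 0.12 did not pass (limma adjusted p = 0.29).

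Whether the CD15 difference depended on the model was tested as an interaction, which is also the difference between the 2 model contrasts. It was called for 0 of the 82 genes and for 0% of all genes (limma), and 0 of the 82 had an unadjusted p under 0.05, beside 279 of the 12367. The median of the 82 genes was -0.12, with 0.02 over all genes and -0.09 in bright non-members. The CD15 and the model comparisons share arrays, and their values are set side by side here for that reason only.

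Other lists of mitochondrial genes were counted in the same fit, in which 12.2% of all genes were lower in CD15 positive and 10.5% in CD15 negative cells of Math1-GFP tumours. Among the 491 bright non-members these shares were 46.4% and 37.3%, with median log2 fold changes of -0.36 and -0.27. The lists here and below were not matched for brightness, so their counts cannot be read as particular to mitochondrial genes. Of 8 genes of complex II and cytochrome c, 4 were lower in each fraction, with medians of -0.40 and -0.31. Sdhb, the iron-sulphur subunit of succinate dehydrogenase, differed by -0.87 ± 0.12 in CD15 positive and -0.73 ± 0.11 in CD15 negative cells. Cytochrome c itself, Cycs, differed by -0.79 and -0.46, and Cyc1 by -0.56 and -0.54, whereas the flavoprotein gene Sdha had -0.13 ± 0.18 and -0.16 ± 0.17 and did not pass.

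Of 28 measured assembly factors named outside the symbol rule, 13 were lower and 1 was higher in CD15 positive cells, and 10 were lower in CD15 negative cells (medians of -0.38 and -0.19). Cox17, which carries copper to complex IV, had -1.54 ± 0.16 and -1.24 ± 0.15. Atpif1, the inhibitor of ATP synthase, had -1.03 and -0.85, and Coa6 had -1.17 and -0.93. Cox10, which makes haem for complex IV, was the one that was higher, at 0.39 ± 0.10 in CD15 positive cells. Atpaf1, a chaperone of the catalytic head, was the one of this list that passed between the CD15 fractions of conventional tumours, at 0.33 ± 0.10 (limma adjusted p = 0.045).

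Of 11 measured regulators of respiratory genes, 0 were lower and 3 were higher in each fraction. Over the 12367 genes tested, 1347 were higher in CD15 positive and 978 in CD15 negative cells. Gabpa, the DNA-binding part of GABP, had 0.68 ± 0.14 in CD15 positive and 0.67 ± 0.14 in CD15 negative cells, and its partner Gabpb1 had 0.50 and 0.32. Tfb2m, a factor for transcription of mitochondrial DNA, had 0.47 and 0.42. Nrf1, Tfam and Yy1 did not pass in either fraction, with 0.39, -0.05 and -0.14 in CD15 positive cells.

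In the citric acid cycle, 6 of 15 measured genes were lower in each fraction and 1, Dld, was higher in CD15 negative cells (medians of -0.21 and -0.13). Fumarase, Fh1, had -0.81 and -0.71, and Mdh2 had -0.62 and -0.56. Of 11 genes of the outer membrane and of protein import, 6 were lower in CD15 positive and 3 in CD15 negative cells (medians of -0.32 and -0.15). Of 14 measured glycolysis genes, 4 were lower and 1 was higher in CD15 positive cells, and 3 were lower and 1 was higher in CD15 negative cells, with a median of -0.50 in each. The higher one was Hk2, a hexokinase bound to mitochondria, at 1.11 ± 0.36 and 1.34 ± 0.33. Ldhb, a lactate dehydrogenase subunit, had -1.08 and -0.94. In the CD15 comparison of conventional tumours, 1 gene of the citric acid cycle (Suclg2, at 0.80 ± 0.21) and 1 of import (Timm23, at 0.37 ± 0.10) were higher and none of the others passed, glycolysis included.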

How the data were processed

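RNA of sorted cells had been hybridised to Affymetrix mouse arrays. The deposited table holds 1 linear intensity per probe set and array. The steps by which the authors made these intensities are not given in the sources used here, but each array has the same mean once 2% of values are trimmed off each end. They were used as log2(signal + 32), which shrinks the fold changes of dim genes. The 64 control probe sets, probe sets without exactly 1 symbol, and those below the 40th percentile of mean log2 value (5.57, a signal of 15.5) were left out, and the brightest probe set stood for each gene. Of the 45101 probe sets, 34945 had 1 symbol. All 86 symbols were found in a RefSeq gene table (GRCm38.p6, used for names).

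The 4 group means were fitted to all 21 arrays, which left 17 residual degrees of freedom (limma 3.58.1 under R 4.3.3). P-values are two-sided, with Benjamini-Hochberg adjustment over 12367 genes and a threshold of 0.05. The procedure was tested on simulated data with errors independent between arrays, which lack the pairing described below. The members, the pathway and marker lists and the rule for named genes (called members in order of p up to 30 in a comparison, core subunits and isoform pairs) were chosen with earlier results of these data known. Lists are described by counts and medians with no set test. The number of arrays limits the precision. Same-numbered conventional arrays deviated from their group means together (r = 0.58 to 0.76 in 5 pairs, at most 0.40 otherwise), so the numbers were taken to pair them. Alternatives were quantile normalization, other pseudocounts and filters, other uses of probe sets, fits of 2 groups alone, the replicate block and leaving out arrays. Bright genes as a background and quantile normalization without Math1-GFP arrays 1 and 2 were added after seeing the data.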

Additional observations from a re-analysis of the deposited data

How the results depend on the processing

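The count and the median of the 82 genes were recomputed under each alternative. Between models, the genes called in CD15 positive cells numbered 63 to 69 and the median lay between -0.77 and -0.72 when each array was left out; in CD15 negative cells these were 61 to 66 and -0.67 to -0.61. The medians moved to -0.51 and -0.48 with quantile normalization, to -0.53 and -0.48 with it and without Math1-GFP arrays 1 and 2 (added after seeing the data), and to -0.65 and -0.53 from the average over the probe sets of each gene. With every probe set of the genes, 118 and 114 of 156 passed, against 26.2% and 23.6% of all probe sets in either direction. In the CD15 comparison of conventional tumours the count was 9, beside 8.13% of all genes called in either direction. It became 2 with quantile normalization (6.51% of all genes), where the median was 0.074, and 15 with a larger pseudocount (8.94%). It was 5 with the 2 groups alone (6.10%) and 4 in conventional arrays numbered 2 to 5 (7.24%). In the unnumbered arrays and those numbered 6 it was 0 (0%). Left-out arrays gave 5 to 13 and medians of 0.18 to 0.22. The last split follows the correlation of whole arrays (on average r = 0.969 inside a set and 0.953 across sets), and fewer arrays entered those fits. With the replicate block the count was 9 (9.99% of all genes), against 5 in the same arrays without it (6.21%). With the block no call other than those of Cox5a and Cox6c was lost. Across models in CD15 negative cells the shared numbers showed no pairing (r = -0.02 to 0.06). There 35 genes passed with the replicate block (3.28% of all genes) and 38 in the same arrays without it (3.91%). The median was -0.57 in both. In Math1-GFP tumours left-out arrays gave 0 calls between CD15 fractions and medians of 0.06 to 0.12. For the interaction they gave 0 calls and medians of -0.15 to -0.08, with -0.034 under quantile normalization and -0.050 in the unnumbered arrays and those numbered 6. For single genes, 1 value in CD15 negative cells reversed, Atp5a1, at -0.36 with the mean of probe sets. The cause of these changes was not tested. Dixon's test for outlying arrays was run on 104 groups of values, from the means over genes and a chosen part of the 82 genes. It flagged 0 of them, and the other genes were not examined. Among these, Atp5b had 12.85 in conventional CD15 negative replicate 6 and at most 12.36 in the rest of that group. Uqcrfs1 had 10.38 in conventional CD15 positive replicate 6 and at least 10.93 in the rest.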
